A study of Homo sapiens with 13 samples.

Results

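Peonidin-3-O-glucoside (POG) was compared directly with resveratrol (RES) in hFOB 1.19 cells, with no control library in the contrast. The 6 libraries chosen from the 13 samples of the series were those labelled POG (n = 3) and RES (n = 3). hFOB 1.19 is an immortalised human fetal osteoblast line that carries a temperature-sensitive SV40 large T antigen, so it is 1 clone and models a proliferating osteoblast precursor. Both groups were grown without fetal bovine serum and received 1 mcg/ml of their compound, the same mass per volume, which is not the same molar amount. Per the study's methods, cells were starved of serum for a day before treatment; the length of treatment is not given in the sources used here. Negative controls (n = 2) were kept without serum and received the vehicle DMSO. Their levels are given as background beside the values of the contrast. The study's methods say that the compounds were added to wells in triplicate, and nothing in the labels says that the libraries of a group came from separate cultures. The p-values thus measure only the spread between libraries within groups, estimated over 12 libraries of the series. That spread may be technical. Besides POG, RES and the negative controls, the 12 libraries include positive controls grown with serum. They also include libraries labelled DEG, which received another compound at 1 mcg/ml.

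Resveratrol is a stilbenoid polyphenol of grapes and berries, known in cell culture for effects on sirtuins, oestrogen receptors, the aryl hydrocarbon receptor and the oxidant-sensing factor NRF2. Peonidin-3-O-glucoside is an anthocyanin, a plant pigment with a flavonoid core and a sugar, and the compounds thus differ in both skeleton and glycosylation. Osteoblasts lay down bone matrix and also steer osteoclasts, the cells that resorb bone, through secreted cytokines, the ligand RANKL and its decoy receptor osteoprotegerin. Cytokines, interferon-stimulated genes, oxidant defence genes, the cell cycle and matrix genes were therefore described in turn.

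Depth was similar in both groups, from 43628194 to 46033584 counted reads in POG and from 43968661 to 44181343 in RES. Mitochondrially encoded genes took 3.29% ± 0.0291 of the reads in POG and 3.34% ± 0.0832 in RES (SD, n = 3 each). That difference did not pass a two-sided exact permutation test (p = 0.5; the smallest p that 3 against 3 libraries allow is 0.1). Ribosomal protein genes took 3.02% to 3.04% in POG and 2.83% to 2.90% in RES. The squared difference between libraries of 1 group, over that of Poisson sampling, was 2.10 to 2.22 in POG and 2.37 to 2.66 in RES, so no pair agreed within sampling noise. Of the 10 osteoblast markers 8 were tested, and 1 was called higher and 4 lower in POG, beside 13.7% and 14.1% of all genes. The osteoblast markers summed to 4750 to 4785 CPM (reads scaled to a library of 1e6 reads) in POG and 4905 to 5033 in RES. Nearly all of that sum was COL1A1, COL1A2 and SPARC. The bone genes SP7 (20 reads in POG, 13 in RES) and IBSP (0 and 1) were below the filter on low counts, so the levels of these 2 markers were at or near 0. Of 31 markers of other cell types 19 were tested, and 0 were called higher and 7 lower in POG, beside 13.7% and 14.1% of all genes. The endothelial markers summed to 35.3 to 37.4 CPM in POG and 53 to 59.7 in RES, nearly all of it TEK. All 4 of those tested were called lower, with a median log2 fold change of −0.92: TEK (−0.63), PECAM1 (−0.80), KDR (−1.05) and CLDN5 (−1.95; 6 and 24 reads, not called in 6 alternatives). CDH5, untested, had 3 and 10 reads. LEP and KRT20 had no reads in either group. The part of other cell types in the results was not tested, and in bulk RNA fewer cells of a type and less RNA per cell cannot be told apart.

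Between POG and RES these cells had many small differences in expression and few large ones. Most interferon-stimulated genes, osteoclast-directed signals and vascular factors were called lower in POG, and most NRF2 targets and mitotic genes were called higher. Cholesterol and ribosomal protein genes had 16 of 34 and 37 of 78 members called higher. A gene was called when its false discovery rate (FDR) in edgeR's exact test was under 0.05. Of 17092 genes tested, 4765 were called (27.9%), with 2348 higher (13.7%) and 2417 lower (14.1%) in POG. The median absolute log2 fold change of the called genes was 0.21, and 85.1% of them moved by less than 0.5. At a log2 fold change of 0.5 or more the split was unequal, with 172 genes higher and 537 lower in POG. At 1 or more it was 53 higher and 160 lower. In 96.3% of the called genes the libraries of POG and RES did not overlap, as in 7188 of all 17092 genes tested. The median log2 fold change over all genes was −0.000725.

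**Figure D1:**
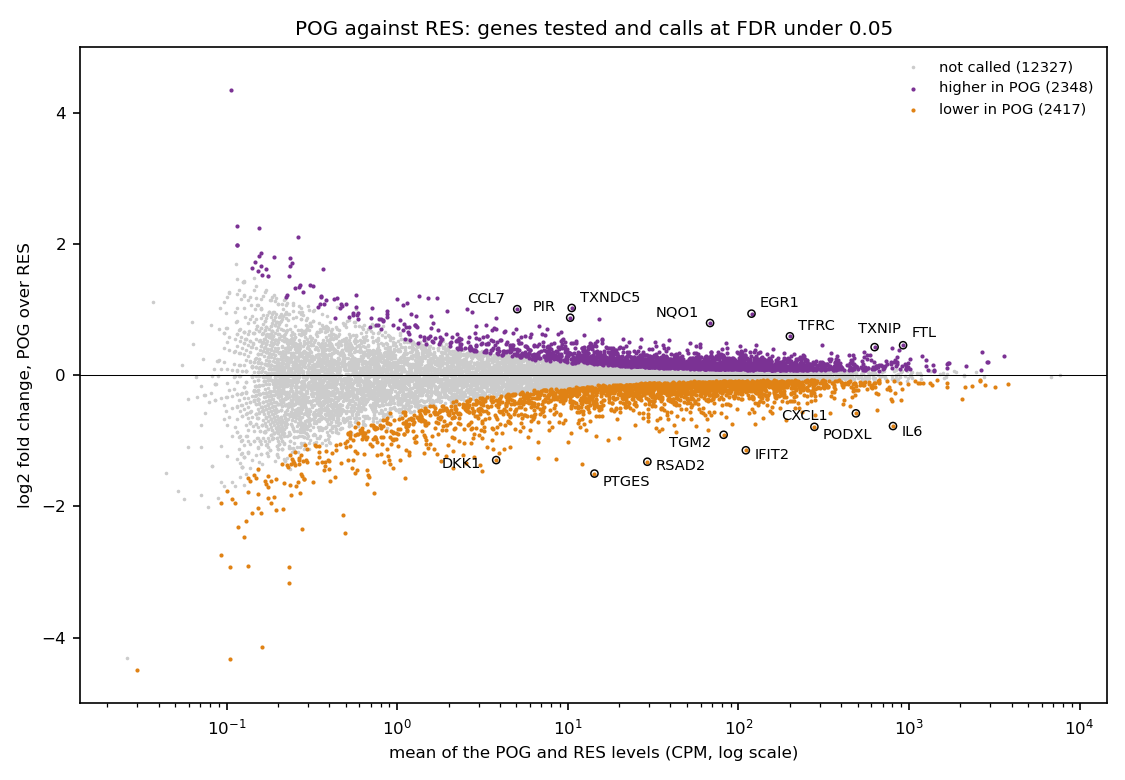
Each point is 1 of the 17092 genes tested, by its mean level in POG and RES (x axis, CPM, log scale) and its log2 fold change of POG over RES (y axis). Coloured points are the 2348 genes called higher and 2417 called lower in POG, and ringed genes are described in the text; the large changes at well-measured levels, such as PTGES, RSAD2 and IFIT2, lie mostly below 0.

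**Figure D2:**
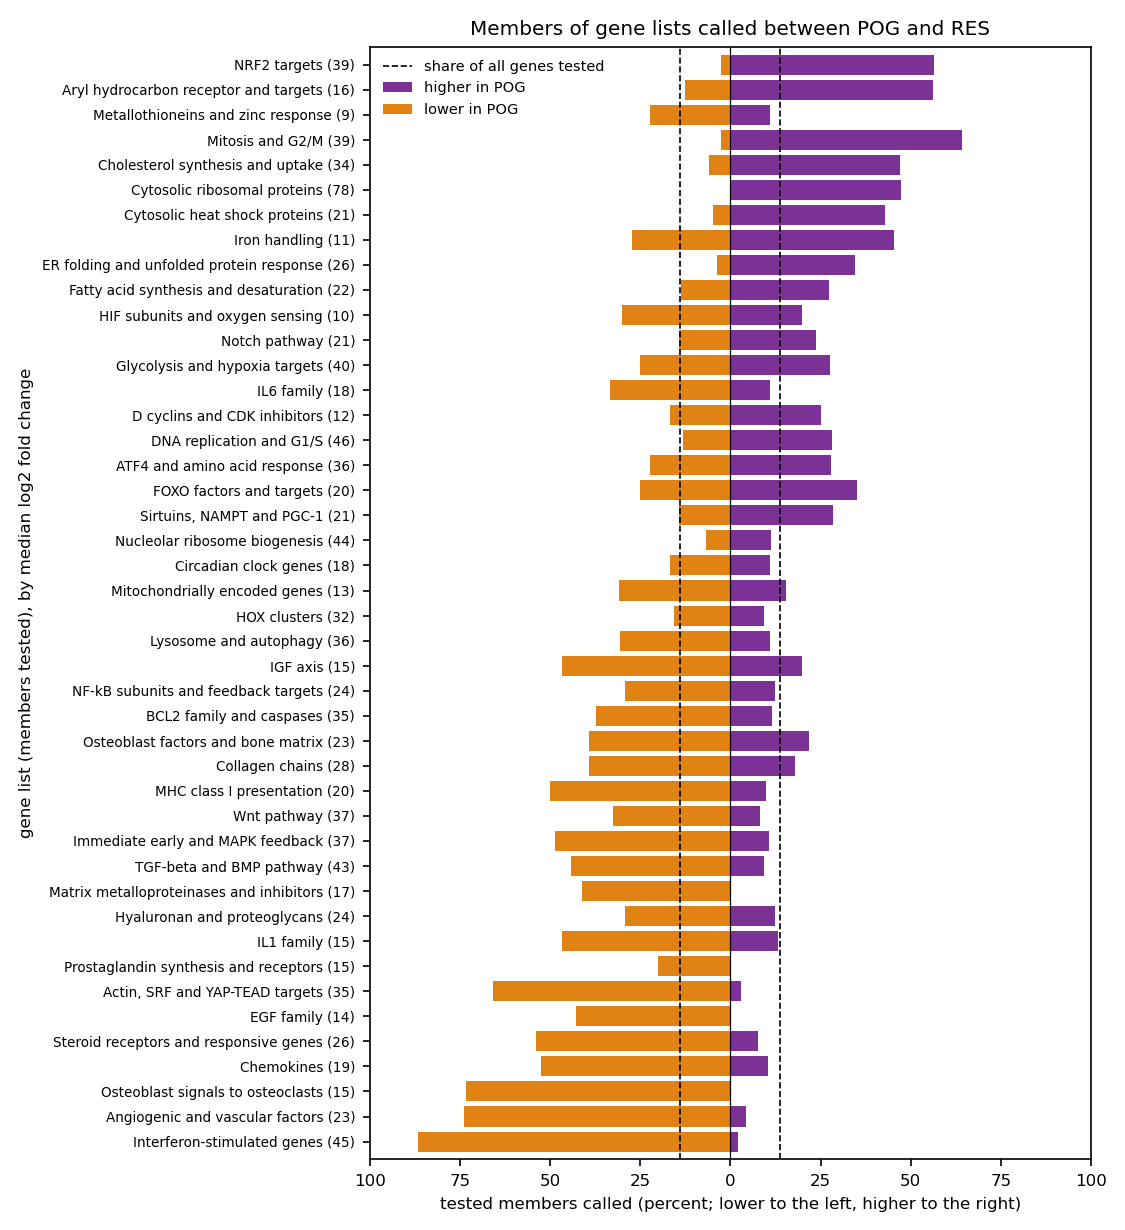
Share of the tested members of the gene lists shown that were called higher (right, purple) or lower (left, orange) in POG, in percent, with lists ordered by their median log2 fold change and dashed lines at the shares of all genes (13.7% and 14.1%). Interferon-stimulated genes stand at the bottom with 39 of 45 members lower, and NRF2 targets at the top with 22 of 39 higher.

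Interferon-stimulated genes were lower in POG as a body. Of 45 members tested 39 were called lower and 1 higher, with a median log2 fold change of −0.35. Among the 34 effectors 32 were called lower and 0 higher. RSAD2, which encodes the antiviral enzyme viperin (ENSG00000134321.11; hg38 chromosome 2, 6865557 to 6898239), stood at 16.8, 16.7 and 16.8 CPM in the POG libraries, 42.1, 42 and 41.3 in the RES libraries and 32.5 and 33.3 in the controls. It was 59.9% lower in POG than in RES (log2 fold change −1.32, SE 0.0494, FDR 1.27e-154), and the 3 POG libraries lay below every RES and every control library. IFIT2, whose product binds viral RNA and slows translation (ENSG00000119922.9; hg38 chromosome 10, 89283694 to 89309271), stood at 72.1, 65.6 and 69.1 CPM in the POG libraries, 148, 153 and 155 in the RES libraries and 126 and 122 in the controls (log2 fold change −1.14, SE 0.0347, FDR 1.05e-209). IFIT1 of the same family stood at 69.1, 69.6 and 66.5 CPM in POG and 116, 113 and 117 in RES (log2 fold change −0.75, SE 0.0338, FDR 6.39e-94). CMPK2, a nucleotide kinase next to RSAD2 on the chromosome, had a log2 fold change of −0.81 (SE 0.0472, FDR 2.51e-61). BST2, or tetherin, which holds budding virus at the cell surface, stood at 98, 92.9 and 90.8 CPM in the POG libraries, 156, 155 and 159 in the RES libraries and 98.8 and 98 in the controls (log2 fold change −0.74, SE 0.0373, FDR 4.85e-75). For BST2 the controls lay near POG, whereas for RSAD2, IFIT2 and IFIT1 they lay between POG and RES.

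By role, the 4 sensors tested had a median of −0.36 and the effectors −0.37, while the 7 signalling genes and factors had −0.098, with 3 called lower. RIGI and IFIH1, cytosolic sensors of double-stranded RNA, had log2 fold changes of −0.39 (SE 0.0332, FDR 4.28e-26) and −0.35 (SE 0.0372, FDR 1.58e-17); part of RIGI overlaps, on its own strand, another annotated gene. STAT2 (−0.21, FDR 2.29e-11), which carries the interferon signal to the nucleus, was lower in POG. IRF9, the DNA-binding partner of that complex, was the 1 member called higher, at 12.1, 12.6 and 13.1 CPM in POG and 9.58, 10.6 and 8.26 in RES (log2 fold change 0.41, SE 0.0839, FDR 1.29e-05). Part of IRF9 overlaps annotated genes on both strands. The receptor chains IFNAR1 (−0.064, 95% interval −0.14 to 0.0067) and IFNAR2 (0.063, −0.040 to 0.17) were not called. EIF2AK2, the kinase PKR, was not called either (−0.069, −0.13 to −0.011; FDR 0.123), and was called with dispersions from POG and RES alone (FDR 0.000773). SAMD9, an antiviral gene that the list does not hold, stood at 42.8, 40.8 and 41.7 CPM in POG and 71.6, 71.8 and 71.1 in RES (log2 fold change −0.78, SE 0.0416, FDR 1.19e-69). Antigen presentation by MHC class I, which interferon also raises, had 10 of 20 genes called lower and 2 higher, with a median of −0.10. NLRC5, its transcriptional activator, was the lowest of those named (−0.44, SE 0.0341, FDR 1.64e-31), followed by ERAP2 (−0.26), PSMB8 (−0.21) and B2M (−0.17). HLA-B and HLA-C had a log2 fold change of −0.15 and −0.15, and as close paralogs they may share reads.

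**Figure D3:**
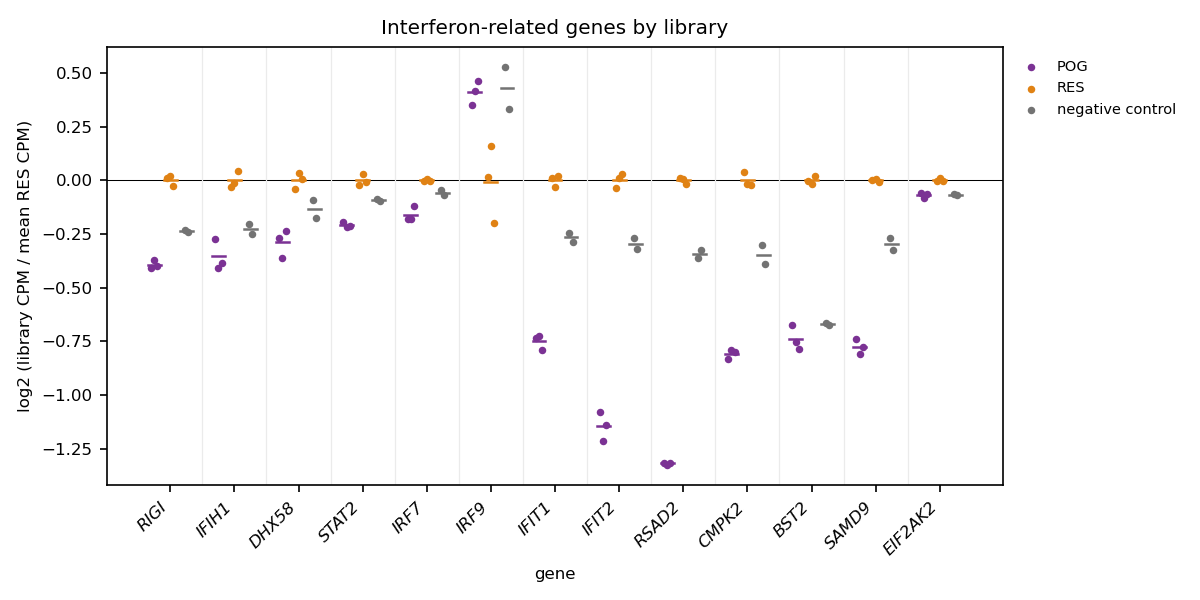
Log2 ratio of each library's CPM to the mean RES CPM of that gene (y axis) for 13 interferon-related genes (x axis), with 1 point per library and a short line at the mean of the log2 ratios in POG (purple), RES (orange) and the negative control (grey). POG points lie below the RES points in 12 of the 13 genes, with IRF9 above.

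Promoters of this list are shown because its members moved together, and the interferon-stimulated response element (ISRE) is the sequence that the complex of STAT2 and IRF9 binds. RefSeq promoters (GRCh38.p14) were cut to the 250 bases before the first listed start site and searched on both strands for GAAANNGAAA, a short form of the ISRE. Of the 45 list members tested 34 had a promoter in the table, and 17 of them (50%) held the motif, against 3.07% of all 27305 promoters. The median log2 fold change was −0.35 in the 17 with and −0.36 in the 17 without it. The promoters of IFIT1, IFIT3, ISG15 and BST2 follow, 5′ to 3′ on the strand of the gene, with each match in capitals; they were picked for large falls and a match. IFIT1 lies at chr10:89392373-89392622 and IFIT3 at chr10:89327747-89327996, both on the plus strand. ISG15 lies at chr1:1013247-1013496 on the plus strand and BST2 at chr19:17405631-17405880 on the minus strand.
IFIT1: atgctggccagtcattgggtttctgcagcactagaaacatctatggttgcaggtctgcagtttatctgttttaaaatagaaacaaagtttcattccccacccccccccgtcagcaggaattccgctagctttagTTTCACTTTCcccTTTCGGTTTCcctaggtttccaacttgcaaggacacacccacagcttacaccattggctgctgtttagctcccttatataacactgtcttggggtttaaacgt
IFIT3: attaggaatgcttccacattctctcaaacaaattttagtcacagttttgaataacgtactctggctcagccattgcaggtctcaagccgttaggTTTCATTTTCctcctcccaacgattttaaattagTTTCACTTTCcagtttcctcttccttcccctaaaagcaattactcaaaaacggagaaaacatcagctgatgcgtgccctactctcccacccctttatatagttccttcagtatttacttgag
ISG15: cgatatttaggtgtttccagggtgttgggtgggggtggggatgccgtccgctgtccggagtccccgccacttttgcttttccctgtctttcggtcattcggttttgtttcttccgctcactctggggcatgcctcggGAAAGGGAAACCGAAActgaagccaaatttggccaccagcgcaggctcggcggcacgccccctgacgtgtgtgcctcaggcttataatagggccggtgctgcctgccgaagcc
BST2: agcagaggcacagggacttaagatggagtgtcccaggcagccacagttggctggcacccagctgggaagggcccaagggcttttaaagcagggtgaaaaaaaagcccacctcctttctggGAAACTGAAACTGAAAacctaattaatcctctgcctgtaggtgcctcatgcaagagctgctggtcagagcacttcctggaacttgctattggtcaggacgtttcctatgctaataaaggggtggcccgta
In each of these promoters 2 matches were found, which overlap in ISG15 and in BST2. They begin 116 and 103 bases before the start site in IFIT1, 156 and 122 in IFIT3, 113 and 107 in ISG15, and 130 and 124 in BST2. IFIT3 (log2 fold change −0.69, FDR 3.21e-103) and ISG15 (−0.58, FDR 1.07e-56) were lower in POG, as were IFIT1 and BST2 above. A match describes the letters of the window, and binding was not measured.

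Among inflammatory cytokines, 3 of 6 ligands of the IL6 family, 2 of 5 IL1 ligands and 7 of 9 CXC chemokines were called lower in POG than in RES, and CCL7, CXCL16 and IL1A were called higher. IL6, the cytokine of the acute phase that also drives osteoclast formation (ENSG00000136244.11; hg38 chromosome 7, 22725884 to 22732002), stood at 597, 583 and 605 CPM in the POG libraries, 1023, 1012 and 1019 in the RES libraries and 973 and 996 in the controls. It was 41.6% lower in POG (log2 fold change −0.77, SE 0.0247, FDR 4.09e-141), with the RES libraries close to the controls and every POG library below both. IL6ST, the signal-transducing receptor chain of the family, was lower too (−0.27, SE 0.0356, FDR 2.17e-10), and so was IL11 (−0.14, FDR 1.31e-05). LIF (0.041, 95% interval −0.0075 to 0.090) and STAT3 (0.048, −0.0062 to 0.10) were not called. Over the 18 members of the IL6 family tested, 2 were called higher and 6 lower with a median of 0.027. Without 1 library in turn 4 or 5 were called lower.

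Chemokines had 10 of 19 members called lower and 2 higher, with a median of −0.23, and 7 of the 9 CXC ligands were lower. CXCL1, which attracts neutrophils, stood at 393, 386 and 396 CPM in the POG libraries, 596, 577 and 586 in the RES libraries and 615 and 619 in the controls (log2 fold change −0.58, SE 0.0259, FDR 1.38e-76). CXCL8, or interleukin 8, stood at 690.0, 676 and 692 CPM in POG and 930.4, 884 and 897 in RES (log2 fold change −0.40, SE 0.0240, FDR 6.14e-38), and CXCL3 at 23, 23 and 25.1 and 35.8, 35.7 and 35.3 (log2 fold change −0.59, SE 0.0494, FDR 2.4e-28). In these 3 genes POG lay below both other groups, and RES lay just below the controls in CXCL1 and CXCL3 and just above them in CXCL8. CCL5, an attractant of T cells, was lower in POG (−0.65, SE 0.0504, FDR 3.73e-34). CCL7, an attractant of monocytes, went the other way at 7.48, 6.01 and 6.76 CPM in the POG libraries, 3.48, 3.76 and 2.85 in the RES libraries and 6.35 and 6.51 in the controls (log2 fold change 1.01, SE 0.114, FDR 3.94e-17), so that here POG lay near the controls and RES below them. CXCL16 was higher as well (0.56, SE 0.0839, FDR 8.92e-10). The chemerin receptor CMKLR2 was expressed at about 1 CPM in RES (1.1, 1.12 and 1.19) and lower in POG (0.377, 0.295 and 0.301; log2 fold change −1.8, SE 0.297, FDR 6.75e-09).

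Among prostaglandin genes 1 synthesis enzyme and 2 receptors were called, a smaller share than over all genes. PTGES, the inducible synthase that makes prostaglandin E2 (ENSG00000148344.10; hg38 chromosome 9, 129738331 to 129753042), stood at 7.46, 7.69 and 7.34 CPM in the POG libraries, 21.9, 20.5 and 21.1 in the RES libraries and 12.4 and 11.8 in the controls. It was 64.6% lower in POG (log2 fold change −1.5, SE 0.0624, FDR 8.82e-121), the largest fall among genes of at least 5 CPM, and the controls lay between the groups. PTGS2, or cyclooxygenase-2, which feeds this enzyme, stood at 128, 118 and 124 CPM in POG and 118, 117 and 113 in RES and was not called (0.089, 95% interval 0.017 to 0.16, FDR 0.0744), although it was called without POG replicate 2 (FDR 0.0329) and with dispersions from POG and RES alone (FDR 0.00391). PTGER2 (−0.46, FDR 5.04e-07) and PTGER4 (−0.36, FDR 0.000594), receptors for prostaglandin E2, were lower in POG. In all, 3 of 15 members tested were called lower and 0 higher (20% called, against 27.9% of all genes). In the IL1 family 7 of 15 were lower and 2 higher, against 5 lower under DESeq2 and 4 to 6 lower and 0 to 2 higher without 1 library in turn: IL1B (−0.20, FDR 8.49e-09) and its receptor IL1R1 (−0.43, SE 0.0291, FDR 2.1e-39) were lower, and IL1A was higher (0.23, FDR 0.0131), a call lost without RES replicate 3 (FDR 0.0922). IL18 had 1.58, 1.27 and 1.46 CPM in POG and 2.36, 2.97 and 1.95 in RES (−0.75, FDR 0.000346). NF-κB genes were mixed, with 3 of 24 higher and 7 lower, beside 13.7% and 14.1% of all genes. The feedback genes TNFAIP3 (−0.23, FDR 1.66e-08) and TNFAIP2 (−0.34, FDR 1.13e-10) were lower, and ICAM1, an adhesion target, was not called (−0.030, 95% interval −0.079 to 0.019).

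**Figure D4:**
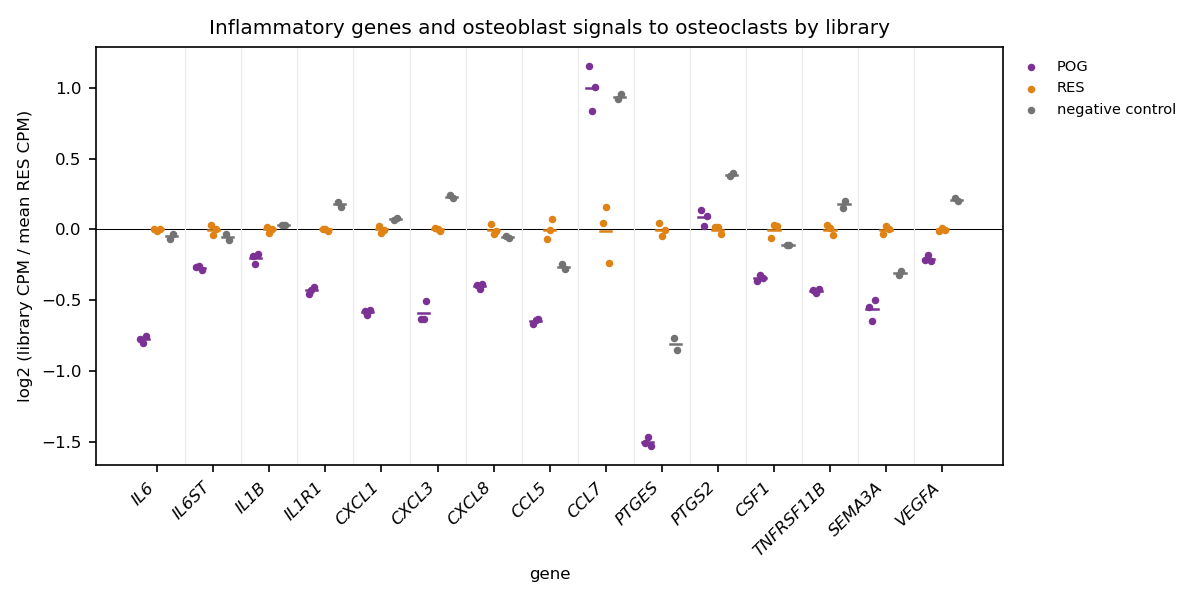
Log2 ratio of each library's CPM to the mean RES CPM of that gene (y axis) for 15 inflammatory and osteoclast-directed genes (x axis), 1 point per library and a short line at the mean of the log2 ratios in POG (purple), RES (orange) and the negative control (grey). PTGES and IL6 show the deepest POG values, CCL7 lies above RES in POG, and the POG and RES points of PTGS2 lie close together.

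Of 15 osteoblast signals to osteoclasts tested, 11 were called lower in POG and 0 higher, with a median of −0.23. TNFSF11, which encodes RANKL, the ligand that osteoclast precursors need, was counted 3, 2 and 2 times in POG, 15, 14 and 26 times in RES, and 24 and 7 times in the controls. The fitted log2 fold change was −2.93 (SE 0.599, FDR 6e-06) and rested on those 7 and 55 reads; the 2 controls spanned most of the range between the groups. TNFRSF11B, which encodes osteoprotegerin, the decoy that blocks RANKL (ENSG00000164761.8; hg38 chromosome 8, 118923557 to 118951885), stood at 25.7, 25.4 and 25.8 CPM in the POG libraries, 35.4, 34.8 and 33.6 in the RES libraries and 38.4 and 39.9 in the controls (log2 fold change −0.43, SE 0.0459, FDR 6.67e-18). The ligand and its decoy were thus both lower in POG. CSF1, the growth factor of osteoclast precursors, stood at 119, 123 and 121 CPM in POG and 147, 157 and 156 in RES (log2 fold change −0.34, SE 0.0314, FDR 1.31e-21). SEMA3A, a secreted inhibitor of osteoclasts, stood at 33.1, 30.8 and 34.3 CPM in the POG libraries, 47.2, 49.2 and 48.6 in the RES libraries and 38.7 and 39.5 in the controls (log2 fold change −0.56, SE 0.0471, FDR 3.25e-29), and TNFSF10, or TRAIL, at 1.27, 2.25 and 1.53 and 3.95, 4.09 and 3.9 (log2 fold change −1.25, SE 0.169, FDR 2.45e-12). WNT5A (0.021, 95% interval −0.031 to 0.073) and EPHB4 (−0.079, −0.14 to −0.014) were not called, though EPHB4 was with dispersions from POG and RES alone (FDR 0.0106).

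Osteoblast factors and bone matrix genes moved in both directions, 5 of 23 higher and 9 lower (5 to 8 lower without 1 library in turn). RUNX2, the master factor of the lineage, stood at 51.3, 48.2 and 48.1 CPM in the POG libraries, 45.6, 46.9 and 44.3 in the RES libraries and 49.5 and 44.7 in the controls and was not called (0.11, 95% interval 0.022 to 0.20, FDR 0.0608), with every POG library above every RES library. With dispersions from POG and RES alone RUNX2 was called (FDR 0.0154). DLX5 was not called (0.53, 0.027 to 1.03, FDR 0.11), but was called without POG replicate 3 (FDR 0.0305) and without RES replicate 2 (FDR 0.0344). SOX9, the factor of cartilage, was lower in POG at 1.42, 1.2 and 1.36 CPM against 2.62, 3.04 and 3.19 (log2 fold change −1.15, SE 0.171, FDR 3.14e-10). ALPL, alkaline phosphatase, stood at 3.57, 3.22 and 3.59 CPM in POG and 4.6, 5.23 and 5.09 in RES (log2 fold change −0.52, SE 0.117, FDR 6.79e-05). SPP1, or osteopontin, was low in both groups and its libraries overlapped (−0.55, FDR 0.0346), a call lost in the quasi-likelihood test (FDR 0.0515), under DESeq2 (FDR 0.0686) and without POG replicate 1 or 2 or RES replicate 1 or 2 (FDR 0.081 to 0.227). BGLAP, or osteocalcin, was higher (0.76, FDR 0.024), a call lost without POG replicate 1 (FDR 0.181) or RES replicate 2 (FDR 0.247), and it shares its strand with a readthrough gene. Decorin, DCN, was higher in POG (0.36, SE 0.0491, FDR 3.63e-11), and so were BGN (0.14) and the phosphate carrier SLC20A1 (0.19, FDR 3.66e-09).

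Among 28 collagen chains tested, 5 were called higher and 11 lower, with a median of −0.093. The type I chains COL1A1 (−0.095, FDR 0.00312) and COL1A2 (−0.11, FDR 0.00025) were slightly lower, and COL11A1 (−0.94, FDR 9.99e-07) and COL27A1 (−0.42, FDR 2.24e-20) more so. The type VI chain COL6A1, by contrast, stood at 3899, 4001 and 3947 CPM in the POG libraries, 3153, 3255 and 3259.9 in the RES libraries and 3893 and 3868 in the controls (log2 fold change 0.29, SE 0.0190, FDR 1.34e-24). COL6A2 was higher too (0.19, FDR 1.37e-10). The third chain COL6A3 had a smaller change of the same sign and was not called (0.063, 95% interval 0.0073 to 0.12). With dispersions from POG and RES alone COL6A3 was called (FDR 0.000873). Of 24 genes for hyaluronan and proteoglycans 3 were higher and 7 lower, beside 13.7% and 14.1% of all genes. The hyaluronan synthase HAS2 (−0.43, FDR 2.19e-08) and the syndecan SDC4 (−0.26, FDR 1.88e-13) were lower, and the glypican GPC1 (0.28, FDR 5.83e-14) was higher. CD44, the hyaluronan receptor, was not called (−0.0027, 95% interval −0.043 to 0.038). Matrix metalloproteinases and inhibitors had 7 of 17 lower and 0 higher, and 4 to 6 lower and at most 1 higher without 1 library in turn. TIMP3, an inhibitor of metalloproteinases that is held in the matrix, stood at 47.7, 47.4 and 47.2 CPM in the POG libraries, 82.9, 86.3 and 85.7 in the RES libraries and 81.8 and 82.9 in the controls (log2 fold change −0.84, SE 0.0353, FDR 7.07e-106). MMP14 was lower (−0.11, FDR 0.000118), while MMP1 (0.052, −0.17 to 0.27), MMP3 (−0.14, −0.34 to 0.059) and ADAM12 (0.015, −0.073 to 0.10, FDR 0.869) were not called.

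Vascular factors were lower in POG in 17 of 23 members tested and higher in 1, with a median of −0.30. THBS1, an inhibitor of vessel growth, stood at 102, 98.9 and 98.1 CPM in the POG libraries, 150.2, 142 and 149 in the RES libraries and 189 and 194 in the controls (log2 fold change −0.56, SE 0.0345, FDR 6.21e-48), while THBS2 was higher (0.21, SE 0.0512, FDR 0.000592). TEK, the receptor for angiopoietins, stood at 33.1, 34.6 and 36 CPM in the POG libraries, 53.9, 49.6 and 56.6 in the RES libraries and 39.4 and 41.2 in the controls (log2 fold change −0.63, SE 0.0472, FDR 1.31e-35). VEGFA, the main growth factor of vessels, was lower (−0.21, SE 0.0269, FDR 4.01e-10), with the controls above both groups. VWF, at 2.82, 2.52 and 3.08 CPM in POG and 5.54, 4.001 and 5.09 in RES, was lower as well (−0.80, FDR 1.06e-06). ESM1 (−1.12, FDR 2.04e-06) and KDR (−1.05, FDR 0.00545) were near 1 CPM in RES and lower in POG; the libraries of KDR overlapped, and its call was lost without POG replicate 2 (FDR 0.0758), POG replicate 3 (FDR 0.0849) or RES replicate 3 (FDR 0.0536). TEK and KDR are also among the 4 endothelial markers given above that were called lower, whose part in this result was not tested. HIF1A, the oxygen-regulated factor upstream of VEGFA, stood at 388, 389 and 382 CPM in POG and 427, 432 and 423 in RES (log2 fold change −0.15, SE 0.0243, FDR 6.04e-06) and overlaps other genes. HIF1AN was not called (0.090, 95% interval 0.012 to 0.17), but was called with dispersions from POG and RES alone (FDR 0.00795).

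Genes read out by SRF and its actin-controlled co-factors and by YAP and TEAD, which report tension in the actin skeleton, were lower in POG in 23 of 35 members tested and higher in 1, with a median of −0.13. CCN1, a YAP target and matrix signal, stood at 368, 354 and 368 CPM in the POG libraries, 471, 474 and 464 in the RES libraries and 466 and 463 in the controls (log2 fold change −0.37, SE 0.0243, FDR 9.76e-35), and CCN2 at 167, 167 and 169 CPM in POG and 212, 213 and 207 in RES (log2 fold change −0.33, SE 0.0273, FDR 5.49e-25). ANKRD1 was lower by more (−1.36, SE 0.149, FDR 7.45e-18) at 1.91, 1.54 and 1.68 CPM in POG. TPM1 (−0.42, FDR 1.08e-42) and CALD1 (−0.31, FDR 5.46e-20), which bind actin filaments, were lower, whereas TPM4 (0.038, 95% interval −0.0033 to 0.080) and MYH9 (−0.034, −0.076 to 0.0080) were not called. MYOCD, a co-activator of SRF that the list does not hold, was lower (−1.09, SE 0.116, FDR 9.28e-20). In the TGF-β and BMP pathway 19 of 43 members were lower and 4 higher: the ligand TGFB2 (−0.55, FDR 3.88e-19) and the co-receptor TGFBR3 (−0.65, FDR 2.84e-26) were lower, and INHBA, the subunit of activin A, was higher at 596, 594 and 601 CPM in POG against 495, 491 and 492 in RES (log2 fold change 0.28, SE 0.0242, FDR 2e-19). In the Wnt pathway 12 of 37 were lower and 3 higher. The higher calls, of WNT2, ZNRF3 and AXIN1, were each lost in some alternatives, and 0 to 2 stood without 1 library in turn. DKK1, a secreted Wnt inhibitor that restrains bone formation (ENSG00000107984.9; hg38 chromosome 10, 52314281 to 52318042), stood at 2.64, 1.88 and 2.09 CPM in the POG libraries, 5.52, 5.61 and 5.09 in the RES libraries and 4.31 and 4.25 in the controls (log2 fold change −1.29, SE 0.121, FDR 3.34e-25). The Wnt receptors FZD4 (−0.66, FDR 8.52e-41) and FZD1 (−0.47, FDR 1.48e-17) were lower.

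Immediate early genes, which growth signals switch on within minutes, did not move as 1 group. Of 37 members of the list with MAPK feedback genes, 18 were called lower and 4 higher in POG, beside 14.1% and 13.7% of all genes. EGR1, a zinc-finger factor of this class (ENSG00000120738.7; hg38 chromosome 5, 138465479 to 138469303), stood at 155, 161 and 155 CPM in the POG libraries, 81.1, 84.7 and 80.01 in the RES libraries and 96.8 and 94.8 in the controls and was 91.5% higher in POG (log2 fold change 0.94, SE 0.0339, FDR 1.15e-143). FOS was higher as well (0.40, SE 0.0800, FDR 6.13e-06), at 10.6, 12 and 11.3 CPM in POG and 8.17, 8.32 and 9.09 in RES. KLF2 and KLF4, factors of the same early class, were lower: KLF2 stood at 35.1, 36.3 and 38.2 CPM in the POG libraries, 55.5, 58.9 and 60.2 in the RES libraries and 39.98 and 39.3 in the controls (log2 fold change −0.67, SE 0.0453, FDR 5.15e-44), and KLF4 at 57.9, 56.9 and 58.3 CPM in POG and 85.9, 84.5 and 86.2 in RES (log2 fold change −0.57, SE 0.0386, FDR 1.61e-42). For EGR1 the POG libraries lay above the controls and the RES libraries below them. For KLF2 the RES libraries lay above the controls and the POG libraries just below them. The feedback phosphatases DUSP4 (−0.28, FDR 4.07e-08) and DUSP10 (−0.33, FDR 0.00078) were lower. Of 14 EGF family genes 6 were lower and 0 higher, among them EGFR (−0.20, FDR 6.22e-06) and its ligands AREG (−0.31, FDR 8.58e-07) and HBEGF (−0.18, FDR 0.000264).

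The promoter of EGR1 is shown because this gene had the largest rise among genes of at least 50 CPM and has a textbook set of SRF sites. Searched for the CArG box, the site of SRF, its 250 bases before the start site (GRCh38.p14, chr5:138465229-138465478, plus strand) held 2 positions, in capitals, each of which matched on both strands. They begin 105 and 83 bases before the start site.
EGR1: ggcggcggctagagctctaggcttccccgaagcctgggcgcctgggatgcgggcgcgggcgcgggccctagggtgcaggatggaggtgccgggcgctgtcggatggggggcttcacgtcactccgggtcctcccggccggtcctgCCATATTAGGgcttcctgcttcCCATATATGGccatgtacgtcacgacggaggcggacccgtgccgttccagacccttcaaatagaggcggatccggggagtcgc
EGR1 was the only promoter with a CArG box among 28 promoters of the immediate early and feedback list. Of 28 promoters in the actin, SRF and YAP list 7 (25%) held one, and their median log2 fold change was −0.10 against −0.11 in the others. Among all 27305 promoters 1.14% held the box.

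Steroid receptors and hormone-responsive genes had 14 of 26 members called lower and 2 higher, with a median of −0.20. SGK1, a kinase induced by glucocorticoids, stood at 42.3, 43.2 and 41 CPM in the POG libraries, 62.1, 61.6 and 63.3 in the RES libraries and 57.7 and 60.2 in the controls (log2 fold change −0.56, SE 0.0381, FDR 2.48e-43), and TSC22D3 was lower (−0.29, FDR 8.89e-05). PER1, which is both hormone-responsive and part of the clock, was higher (0.32, SE 0.0314, FDR 2.23e-19). The oestrogen receptor ESR1 had 5 reads in each group and was not tested. ESR2 was low in both groups (0.821, 0.862 and 1.14 CPM in POG, 1.37, 1.56 and 1.5 in RES) and lower in POG (−0.65, FDR 0.0167). That call was lost without POG replicate 1 (FDR 0.0935), POG replicate 2 (FDR 0.0706) or RES replicate 2 (FDR 0.0668). Of 5 oestrogen-responsive genes tested, IGFBP4 was called higher (0.17, FDR 5.19e-07) and CXCL12 lower (−0.30, FDR 1.87e-05).

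NRF2 targets, the oxidant and electrophile defence genes, were higher in POG in 22 of 39 members tested and lower in 1, with a median of 0.15. NQO1, the quinone reductase that is a standard readout of this pathway (ENSG00000181019.12; hg38 chromosome 16, 69706996 to 69726668), stood at 86.1, 86.6 and 87.2 CPM in the POG libraries, 49.9, 49.9 and 50.03 in the RES libraries and 94.1 and 98.6 in the controls. It was 73.5% higher in POG than in RES (log2 fold change 0.79, SE 0.0351, FDR 3.05e-98), with POG slightly below the controls and RES far below them. PIR, an iron-binding NRF2 target, stood at 13.1, 13.1 and 13.9 CPM in the POG libraries, 7.72, 7.02 and 7.13 in the RES libraries and 12.8 and 10.8 in the controls (log2 fold change 0.88, SE 0.0802, FDR 1.59e-25). NFE2L2, which encodes NRF2 itself, was higher in POG (0.35, SE 0.0311, FDR 7.34e-24), at 116, 119.5 and 116 CPM against 91.8, 91.4 and 92.2. BACH1, the repressor that competes with NRF2, was the 1 member called lower (−0.21, FDR 1.06e-06), and KEAP1, which marks NRF2 for breakdown, was not called (0.056, 95% interval −0.014 to 0.13). SLC7A11, the cystine importer for glutathione synthesis, stood at 34.6, 32.7 and 34.6 CPM in the POG libraries, 25.1, 27.5 and 24.7 in the RES libraries and 37.5 and 38.6 in the controls (log2 fold change 0.40, SE 0.0637, FDR 1.05e-08). SRXN1, which repairs peroxiredoxins, was higher (0.86, FDR 5.21e-07) and shares most of its length and its strand with another annotated gene, and OSGIN1 was higher (0.42, FDR 9.48e-05). Among 17 glutathione and thioredoxin genes 13 were higher and 0 lower, and among 17 detoxification genes 7 were higher and 0 lower. The NRF2 site TGACNNNGC was present in 8 of 28 promoters of the list (28.6%) and in 11% of all promoters, with median log2 fold changes of 0.16 with it and 0.18 without it.

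Iron genes included both ferritin chains and the transferrin receptor among those higher in POG. FTL, the light chain of the iron store ferritin, stood at 1064, 1063 and 1079 CPM in the POG libraries, 779.6, 795 and 762 in the RES libraries and 1045 and 1079 in the controls (log2 fold change 0.46, SE 0.0255, FDR 3.54e-45), and the heavy chain FTH1 at 3086, 3091 and 3147 CPM in POG and 2680.3, 2723 and 2707 in RES (log2 fold change 0.20, SE 0.0222, FDR 5.86e-10). Both have many processed pseudogenes, so their counts carry an uncertainty. TFRC, the receptor that takes up transferrin iron (ENSG00000072274.12; hg38 chromosome 3, 196012511 to 196082153), stood at 240.2, 239 and 244 CPM in the POG libraries, 163, 154 and 162 in the RES libraries and 213 and 222 in the controls (log2 fold change 0.59, SE 0.0293, FDR 2.32e-71). HMOX1, which frees iron from haem, was higher (0.35, SE 0.0554, FDR 1.57e-08), while NCOA4, which carries ferritin to the lysosome, was lower (−0.23, FDR 6.34e-11). Of 11 iron genes tested 5 were called higher and 3 lower; the quasi-likelihood test and DESeq2 kept 1 of the lower calls. The uptake genes SLC11A2 (0.028, 95% interval −0.033 to 0.090) and STEAP3 (0.069, 0.0057 to 0.13) were not called, STEAP3 with an FDR of 0.0327 under dispersions from POG and RES alone. Genes of the aryl hydrocarbon receptor, which binds planar ligands, had 9 of 16 higher and 2 lower. AHR itself was lower at 33.1, 33.9 and 33.3 CPM in the POG libraries, 43.5, 45.2 and 41.7 in the RES libraries and 38.4 and 42.1 in the controls (log2 fold change −0.38, SE 0.0523, FDR 8.68e-11). Its target CYP1B1 stood at 48.8, 48.3 and 47.2 CPM in POG and 38.7, 39.8 and 36.9 in RES (log2 fold change 0.32, SE 0.0405, FDR 7.9e-13). The target AHRR was higher too (0.19, FDR 1.24e-06), and NQO1 is also on that list. Both AHR and AHRR overlap another annotated gene on their own strand, a readthrough gene for AHRR.

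**Figure D5:**
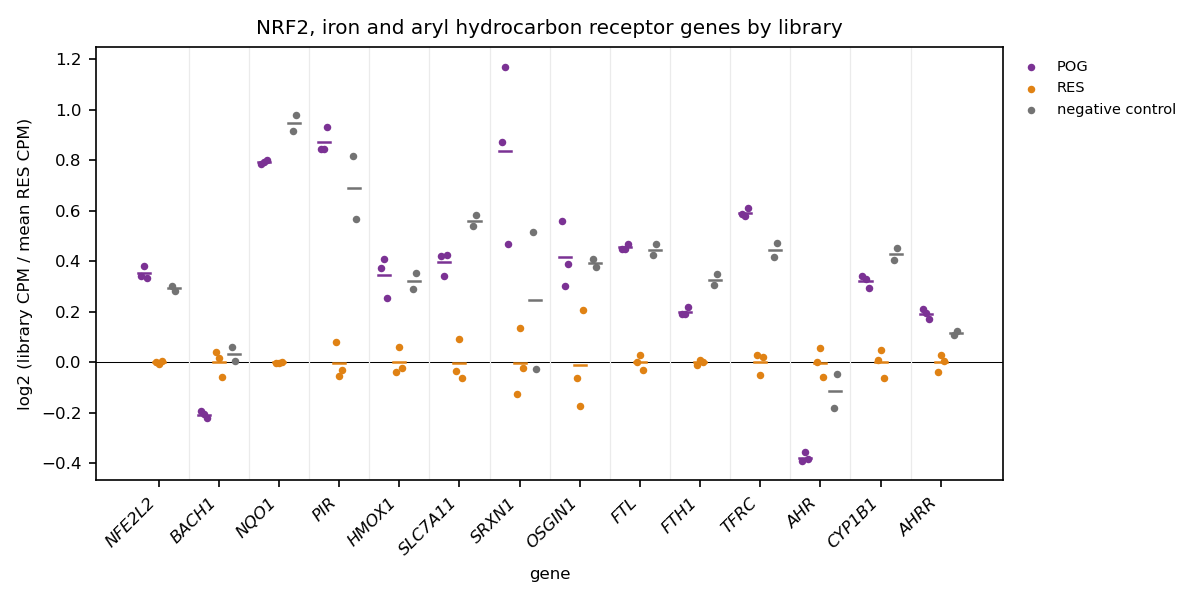
Log2 ratio of each library's CPM to the mean RES CPM of that gene (y axis) for 14 genes of NRF2, iron and the aryl hydrocarbon receptor (x axis), 1 point per library and a short line at the mean of the log2 ratios in POG (purple), RES (orange) and the negative control (grey). For NQO1, FTL and TFRC the POG points lie near or above the controls and above RES, and BACH1 and AHR lie below RES in POG.

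Cholesterol genes were higher in POG in 16 of 34 members tested and lower in 2, with a median of 0.11. INSIG1, the sterol sensor of the endoplasmic reticulum, stood at 921, 894 and 913 CPM in the POG libraries, 684, 689 and 672 in the RES libraries and 727 and 752 in the controls (log2 fold change 0.42, SE 0.0229, FDR 7.53e-47). The synthesis enzymes MSMO1 (0.25, FDR 2.9e-13) and IDI1 (0.24, FDR 2.66e-14) were higher and LSS was lower (−0.15, FDR 5.72e-06). SREBF2, the factor that drives this programme, was higher (0.17, FDR 1.75e-07), and SCAP, its escort, was not called (−0.0017, 95% interval −0.060 to 0.056). INSIG1 was above the controls in POG and below them in RES. Fatty acid genes were mixed, with 6 of 22 higher and 3 lower, beside 13.7% and 14.1% of all genes.

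Of 39 mitosis and G2/M genes 25 were called higher in POG and 1 lower, with a median of 0.12. MKI67, the proliferation marker, stood at 934, 931 and 933 CPM in the POG libraries, 762, 765 and 786 in the RES libraries and 892 and 869 in the controls (log2 fold change 0.27, SE 0.0359, FDR 6.89e-10). CDK1, the mitotic kinase, stood at 174, 172 and 173 CPM in POG and 146, 141 and 137 in RES (log2 fold change 0.29, SE 0.0306, FDR 1.37e-16), and AURKB was higher (0.25, FDR 9.19e-12). CENPF was not called (−0.062, 95% interval −0.14 to 0.013), except with dispersions from POG and RES alone (FDR 0.00604). ECT2 was lower (−0.11, FDR 0.00664), a call lost without RES replicate 1 (FDR 0.0503). CCND1, the cyclin that growth factors raise in G1, went the other way at 128, 128 and 128 CPM in the POG libraries, 164, 167 and 165 in the RES libraries and 150.2 and 150.4 in the controls (log2 fold change −0.37, SE 0.0278, FDR 1.43e-30), and CDK6 was lower (−0.25, FDR 5.44e-06). The other D cyclins, CCND2 (0.11, 95% interval −0.34 to 0.56) and CCND3 (−0.029, −0.095 to 0.038), were not called. The inhibitors CDKN2D (0.32, FDR 4.08e-07), CDKN2C (0.27, FDR 3.21e-12) and CDKN1A (0.16, FDR 3.47e-07) were higher. DNA replication genes had 13 of 46 higher and 6 lower, beside 13.7% and 14.1% of all genes, with a median of 0.022. TP63, a factor of epithelial stem cells, had 18 reads in POG and 35 in RES and was not called (−0.96, −2.03 to 0.10).

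Cytosolic ribosomal protein genes were called higher in POG in 37 of 78 members and lower in 0, with a median of 0.084. RPS2 was the largest named change (0.23, SE 0.0265, FDR 8.63e-11), at 892, 901 and 883 CPM in POG and 754, 766 and 767 in RES. Without 1 library in turn 23 to 35 members were higher and 0 lower. Transcript length moved a little with the contrast, and over 5 equal classes of length the shortest genes had a median of 0.018 and the longest −0.019; its part in the result for these short genes was not tested. Nucleolar genes of ribosome assembly had 5 of 44 called higher (2 to 5 without 1 library in turn) and 3 lower, near or below the share of all genes. Cytosolic heat shock genes had 9 of 21 higher and 1 lower. HSP90AA1 stood at 1101, 1086 and 1098 CPM in the POG libraries, 928, 916 and 927 in the RES libraries and 1007 and 995 in the controls (log2 fold change 0.25, SE 0.0206, FDR 1.89e-18). HSPA1A (0.40, FDR 2.81e-23) and HSPA1B (0.36, FDR 1.07e-19), near-identical copies that may share reads, were higher. Folding factors of the endoplasmic reticulum had 8 of 20 higher and 0 lower, among them P4HB (0.20, FDR 2.53e-10) and CALR (0.15, FDR 1.26e-05).

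Of 35 BCL2 family and caspase genes 4 were called higher in POG and 13 lower, beside 13.7% and 14.1% of all genes. Higher calls numbered 2 or 3 without 1 library in turn, and the list median was −0.080. The lower members included the death ligand TNFSF10, given above, and the caspase CASP10 (−0.44, FDR 0.00284). BCL2L1, which encodes the survival protein BCL-XL, stood at 73.4, 68.7 and 71.2 CPM in the POG libraries, 88.4, 94 and 92 in the RES libraries and 83.6 and 84.3 in the controls (log2 fold change −0.36, SE 0.0347, FDR 4.18e-21), and a gene on the opposite strand overlaps it. MCL1, another survival gene, was lower (−0.13, FDR 0.000163), as was PMAIP1, which encodes the death factor NOXA (−0.31, FDR 3.99e-17). BCL2 (0.063, 95% interval −0.15 to 0.28), BCL2A1 (−0.19, −0.40 to 0.020), BAX (0.00011, −0.060 to 0.060) and CASP9 (0.0092, −0.13 to 0.15) were not called. BCL2L11, or BIM, was not called but lay near the threshold (−0.12, −0.22 to −0.024, FDR 0.0575). It was called with plain library totals (FDR 0.0473), at a mean of at least 1 CPM (FDR 0.0369) and with dispersions from POG and RES alone (FDR 0.0306).

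Other leading genes are given together here, whether or not a gene list holds them. Lower in POG was TGM2, which cross-links matrix proteins, at 55.3, 57.9 and 57.8 CPM in the POG libraries, 107, 107 and 107 in the RES libraries and 77.5 and 80.5 in the controls (log2 fold change −0.91, SE 0.0340, FDR 2.41e-134). PODXL, a sialomucin of the cell surface, stood at 206, 203 and 205 CPM in POG and 353, 352 and 356 in RES (log2 fold change −0.79, SE 0.0283, FDR 2.09e-129), and BDKRB2, the bradykinin receptor, at 29.2, 30.1 and 32.6 and 54.2, 57.8 and 55.3 (log2 fold change −0.86, SE 0.0439, FDR 5.69e-80). The sodium channel SCN3A (−1.28, FDR 3.77e-39), the keratin KRT80 (−1.26, FDR 1.26e-38) and the phospholipase PLCG2 (−1.19, FDR 4.06e-20) were lower, with CALHM5 (−1.12), the histone gene H2AC6 (−1.02) and PDZD2 (−1.01). Higher in POG was TXNDC5, a disulphide isomerase, at 13, 15.6 and 13.9 CPM against 5.11, 7.53 and 8.21 (log2 fold change 1.02, SE 0.128, FDR 6.55e-14); most of it overlaps a readthrough gene and a gene on the other strand. The adhesion gene ICAM5 (0.86, FDR 2.51e-25), the proline synthesis enzyme PYCR1 (0.49, FDR 3.56e-31), MXD3 (0.49, FDR 3.76e-23) and MPDZ (0.48, FDR 5.67e-28) were higher, with TLCD3B (0.74), CNIH2 (0.71), the dopamine receptor DRD4 (0.70), DERL3 (0.68), ENSG00000258472 (0.66) and SEMA4A (0.66). Most of DERL3 overlaps a gene on the other strand, and ENSG00000258472 overlaps genes on its own strand. TXNIP, an inhibitor of thioredoxin, stood at 727, 714 and 724 CPM in the POG libraries, 535, 539 and 536 in the RES libraries and 494 and 503 in the controls (log2 fold change 0.43, SE 0.0228, FDR 5.53e-51), so that in this gene both compounds lay above the controls.

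List medians against the negative control are given as background. The values of POG and RES share the 2 control libraries, so they stand side by side and were not compared. For interferon-stimulated genes the median log2 fold change against the control was −0.13 in POG and 0.17 in RES. For NRF2 targets it was −0.018 in POG and −0.25 in RES. For vascular factors it was −0.30 and 0.036, and for osteoblast signals to osteoclasts −0.26 and 0.048. For cholesterol genes it was 0.15 and 0.036, for mitosis genes 0.087 and −0.045, and for ribosomal protein genes 0.021 and −0.059. Over all genes tested both medians were under 0.01, at 0.0023 in POG and 0.0011 in RES.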

How the data were processed

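RNA was sequenced from 13 labelled samples of hFOB 1.19 cells, and 12 had a column in the deposited table of 43836 genes. The authors aligned reads to hg38 with STAR, counted them per gene with featureCounts and tested with edgeR, per the labels and the study's methods. The methods also name BWA MEM for the alignment. Versions, strand and the handling of multiply mapped reads are not given in the sources used here. The deposited values were raw read counts, whole numbers with no normalization. Library totals in POG and RES ran from 43628194 to 46033584 reads, and intervals cover counting and library spread only.

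From these counts, genes were filtered by group with filterByExpr and scaled by TMM in edgeR 4.0.16 (R 4.3.3). Dispersions were taken over all 12 libraries, and POG was tested against RES with the two-sided exact test and Benjamini-Hochberg adjustment over 17092 genes. Standard errors came from edgeR's quasi-likelihood fit, and approximate 95% intervals are the estimate ± 1.96 SE. CPM used TMM-scaled totals. Alternatives were the quasi-likelihood test, DESeq2 1.42.0, other scalings, filters and thresholds, dispersions from POG and RES alone, and leaving out each library. On simulated data for the 17092 genes of this comparison, 200 genes with a mean above 1 CPM were changed. The test recovered 88% of changes of 0.5 and 100% of changes of 1 on the log2 scale, and called 23 unchanged genes. Those 23 were a larger share of the simulated calls than the FDR threshold of 0.05. Only 200 genes were changed there, whereas 4765 were called in the data. Recovery in genes of lower counts was not simulated.

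The contrast, the 47 gene lists and the genes named were chosen with earlier results of these data known. Genes were named by rule: called genes with no overlap between the groups and a mean of at least 5 CPM in POG or RES, the 12 largest changes in each direction; the 6 largest at 50 CPM or more; up to 5 called members a list in each direction at 1 CPM or more; all members of roles of at most 8 genes; the 2 most abundant uncalled members of a list; and genes the study discusses; ISG15 and IFIT3 were shown for their promoters after their values were seen. Replicate numbers only name libraries. Some genes that the rule names are not reported here.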

Additional observations from a re-analysis of the deposited data

How the results depend on the processing

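The count of 4765 called genes was 4526 in the quasi-likelihood test, 4160 under DESeq2, where 1989 genes had no adjusted p, 4770 with DESeq2 size factors, 4741 with plain library totals, 4241 without the filter on low counts, 4729 at a mean of at least 1 CPM, 5851 with dispersions from POG and RES alone and 3388 at an FDR under 0.01. Without 1 library in turn it was 3890 to 4004. With an absolute log2 fold change of at least 1 required, 213 genes were called, 53 higher and 160 lower. Of 547 genes named by the rule or the lists 366 were called. Of these calls 297 held in every alternative fit that gave the gene an adjusted p, 69 were lost in at least 1, and 0 changed sign. The stricter FDR and the fold change limit are not counted among these fits. Another 43 were called only in an alternative. No paired analysis was possible because the labels carry no replicate numbers. Genes with few reads, such as TNFSF11 and TP63, are limited by depth.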

Other observations

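Further gene lists are given by counts, beside 13.7% of all genes called higher and 14.1% called lower. In the Notch pathway, a contact signal between neighbouring cells, 5 of 21 members were called higher in POG and 3 lower. The receptor NOTCH3 stood at 643, 669 and 652 CPM in the POG libraries, 519, 538 and 533 in the RES libraries and 788 and 804 in the controls (log2 fold change 0.31, SE 0.0249, FDR 1.8e-22), whereas the receptor NOTCH2 was lower (−0.19, FDR 0.000145). Of 40 glycolysis genes and hypoxia targets 11 were higher and 10 lower, and P4HA1, a collagen prolyl hydroxylase, stood at 182, 182 and 179 CPM in POG and 139, 138 and 136 in RES (log2 fold change 0.39, SE 0.0277, FDR 6.64e-36). Among FOXO factors and targets 7 of 20 were higher and 5 lower, among them PIK3IP1, an inhibitor of PI3 kinase, which was higher (0.43, FDR 8.06e-12), and CITED2, which was lower (−0.60, FDR 1.42e-45).

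Amino acid genes of the ATF4 response had 10 of 36 members higher and 8 lower (5 to 8 without 1 library in turn), and the 10 synthesis enzymes among them had 5 higher and 1 lower. Sirtuins and their partners, for which resveratrol is best known, had 6 of 21 higher (3 to 5 without 1 library in turn) and 3 lower with a median of 0.0090. Lysosome genes had 11 of 25 lower and 1 higher, autophagy genes 3 of 11 higher and 0 lower, and genes of the IGF axis 3 of 15 higher and 7 lower. Circadian clock genes, with 2 of 18 higher and 3 lower, and HOX genes, with 3 of 32 higher and 5 lower (2 to 4 without 1 library in turn), were called at or under the share of all genes (27.9%). Mitochondrially encoded genes had 2 of 13 higher and 4 lower, metallothionein and zinc genes 1 of 9 higher and 2 lower, and HIF subunits and oxygen sensors 2 of 10 higher and 3 lower.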
